A study of Homo sapiens with 8 samples.

Results

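The histone genes of the chromosome 6 cluster were taken as the protein-coding genes on chromosome 6 whose GENCODE 29 name begins with HIST1H, joined to the tables by their Ensembl gene identifier. This rule gave 55 of the 58735 genes in the tables, all between chr6:25726132-27893843 on GRCh38. They comprised 6 genes for the linker histone H1, 12 for H2A, 15 for H2B, 10 for H3 and 12 for H4. RNA sequencing had been done on U2OS cells, a human osteosarcoma line, that were transduced with lentivirus (pLKO.1) for a control shRNA (control cells) or a WSB2 shRNA (KD cells) and selected with puromycin as stable lines. Each line was left unstimulated or was stimulated with TNF-α for 5 h, which gave 4 groups of 2 libraries. All 8 libraries therefore came from virus-transduced, drug-selected cells, and which of the study's WSB2 hairpins was sequenced is not given in the sources used here. Nothing in the labels says that the 2 libraries of a group came from separate cultures, so the p-values measure only the spread between these libraries, which may be technical.

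Core histones H2A, H2B, H3 and H4 form the protein spool around which DNA is wrapped, and H1 binds the DNA that enters and leaves it. Most genes of this cluster are replication-dependent: they are short, lack introns, and are transcribed mainly in S phase through the coactivator NPAT. Their messages classically end in a stem-loop that is bound by SLBP instead of in a poly(A) tail, although some of these genes can also give polyadenylated messages. WSB2 is a substrate receptor of cullin-RING ubiquitin ligases, and TNF-α is a cytokine that activates NF-κB.

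Values were the deposited FPKM, fragments scaled to the length of annotated exon and to the library size. Whole reads could be recovered from them, and the libraries held 15601098 to 18677023 reads. The target of the shRNA followed the labels. WSB2 was at 27.7 and 28.0 FPKM in the unstimulated control libraries and at 8.38 and 8.52 in the unstimulated KD libraries, a log2 fold change of -1.61 ± 0.07 (SE, limma, adjusted p = 0.000119). After TNF-α it was at 24.995 and 25.3 FPKM in control cells against 9.002 and 9.18 FPKM in KD cells (-1.37 ± 0.07, limma, adjusted p = 0.00113).

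The line's markers were read first. COL1A1, SPARC and VIM were abundant (172 to 269 FPKM for COL1A1), and RUNX2, ALPL and SPP1 were detected, whereas COL1A2 had 82 reads in all 8 libraries together, BGLAP had 25, SP7 had 1 and TWIST1 was listed at 0. Of 6 blood-cell markers none passed the filter on low reads, and their summed level was at most 0.335 FPKM in any library. The 5 endothelial markers summed to 0.378 to 0.720 FPKM, led by VWF. All 6 epithelial markers were tested, led by KRT14 at 12.9 to 24.4 FPKM, and they summed to 16.5 and 17.1 FPKM in the unstimulated KD libraries and to 21.3 to 30.3 FPKM in the other libraries. In unstimulated KD cells 1 of the 7 lineage markers tested was higher and 4 were lower, 1 of the 6 epithelial markers was higher and 2 were lower, and 0 of 3 endothelial markers tested were called by limma (1 with an unadjusted p under 0.05, 1 by voom). Over all genes tested 29.8% were higher and 30.2% lower in this comparison. With scaling to total reads 1 lineage marker was higher and 1 lower, and 1 epithelial marker was higher and 1 lower. After a correction for GC content and length 0 lineage markers were higher and 3 lower. Of the epithelial markers 2 were then higher and 0 lower, and 1 endothelial marker was higher. The part of these genes in the results on histone genes was not tested.

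The unstimulated KD libraries stood apart from the other 6. The share of mitochondrial genes was 4.10% and 4.42% of reads here and 1.11% to 2.03% elsewhere, and 26225 and 26397 genes had a read, against 22072 to 22957. Averaged over reads, their genes had a GC content of 49.9% and 49.4%, whereas this average was 52.5% to 53.2% elsewhere. The FPKM values had been divided by a library size that was 1.21 times the total reads in both, and 0.925 to 1.03 times the total in the other libraries, so a histone gene with the same share of reads is listed lower in the unstimulated KD libraries. The 2 unstimulated control libraries were the least alike: the mean variance between them over genes with at least 50 reads was 30.1 times the sampling noise, against 2.45 to 7.23 times in the other groups. The cause of these differences was not tested, and the scaling to total reads and a correction for GC content and length were tried beside the deposited scaling.

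Few of the 55 genes carried the signal. The cluster held 100300 reads over all libraries, of which 2 genes, HIST1H1C and HIST1H2BK, held 75.1% and the 9 most abundant genes held 97.7%. Below these 9 the counts fell off, from 838 reads for HIST1H2AG, the ninth, to 294 reads for HIST1H2BN, the tenth. The other 46 genes shared 2265 reads. In all, 18 genes (32.7%) were listed at 0 in every library, against 12.9% of the 19951 protein-coding genes in the tables. These were HIST1H1B and HIST1H1D among H1 genes, HIST1H2AA, HIST1H2AD, HIST1H2AK, HIST1H2AL and HIST1H2AM among H2A genes, HIST1H2BA, HIST1H2BB, HIST1H2BH and HIST1H2BI among H2B genes, HIST1H3D, HIST1H3F, HIST1H3G and HIST1H3I among H3 genes, and HIST1H4F, HIST1H4G and HIST1H4L among H4 genes.

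**Figure D1:**
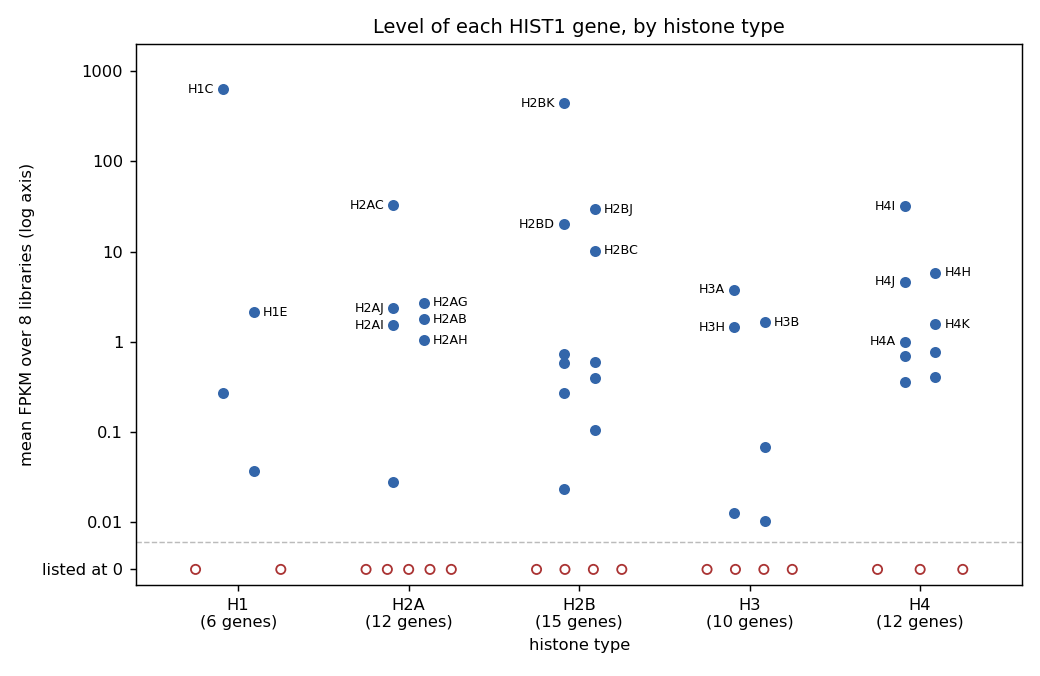
Mean FPKM over the 8 libraries (log axis) of each of the 55 HIST1 genes, by histone type on the horizontal axis; filled points are genes with reads, named from 1 FPKM upward, and open points below the dashed line are the 18 genes listed at 0. HIST1H1C and HIST1H2BK stand more than 10 times above the next gene of their type.

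A zero in these files need not be a measured absence. Among 15 RNAs that are made without a poly(A) tail, most of them used by all cells, 11 were also listed at 0 in all libraries, among them RN7SK, RMRP, RPPH1 and RN7SL1. Of all genes in the tables, 44.5% were listed at 0 in every library. TERC, the telomerase RNA, was one of the 11, but U2OS keeps its telomeres without telomerase and is known to lack this RNA, so its 0 does not bear on this. RN7SL2 had 1104 reads, RNU5A-1 had 24, SNORD3A 14 and SCARNA7 2. Whether the libraries were made from poly(A)-selected RNA, and how reads that fit several genes were treated, is not given in the sources used here. The low counts of messages that end in a stem-loop and those of these RNAs were therefore given side by side, and the part of library preparation was not tested.

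The stem-loop itself could be read from the annotation for 20 of the 55 genes, in 6 distinct forms. It is shown here because it is the feature that sets these messages apart from other messages. The lines below are examples by gene: HIST1H2BC and HIST1H2BD have the same form, and that of HIST1H3E, with the loop tctc, is not listed. The stem is in capitals and the loop in lower case, 5′ to 3′ on the RNA strand with T for U, from the GENCODE 29 transcripts (GRCh38).

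HIST1H2AC, chr6:26124669-26124684, plus strand: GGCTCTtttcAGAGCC
HIST1H2BC, chr6:26123472-26123487, minus strand: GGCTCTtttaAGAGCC
HIST1H2BD, chr6:26158587-26158602, plus strand: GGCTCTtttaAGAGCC
HIST1H2AG, chr6:27133515-27133530, plus strand: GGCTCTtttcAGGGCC
HIST1H4H, chr6:26285131-26285146, minus strand: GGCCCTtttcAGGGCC
HIST1H4I, chr6:27139654-27139669, plus strand: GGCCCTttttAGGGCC

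The form with the loop tttc between GGCTCT and AGAGCC was the most frequent, in 9 genes, among them HIST1H2AC and HIST1H3H. In HIST1H2AC it lay 43 bases after the stop codon, and the annotated transcript ran on for 1128 bases and had AATAAA, the poly(A) signal, within its last 50 bases. In HIST1H2AG 1761 bases followed the stem-loop and in HIST1H4H 1655, both with AATAAA at the end, whereas in HIST1H4I 212 bases followed without it. Of the 12 genes with a stem-loop and with AATAAA in the last 50 bases of an annotated transcript, 2 were listed at 0 and 9 passed the filter on low reads. The transcript of HIST1H4J, one of the 12, ends 6 bases after the stem-loop. In HIST1H2BN, another of them, the AATAAA lies in a transcript other than the one in which the stem-loop was read. Of the 29 genes whose annotation held the coding sequence alone, 15 were listed at 0 and 8 passed. HIST1H1C and HIST1H2BK, the most abundant genes, were among these 29, so their FPKM is per coding length and any reads outside the coding sequence are not in it.

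Sequence shared between copies limited only a few genes at the 150 bases of a sequencing read. For each 150-base window of a gene's longest annotated transcript, an identical window was looked for in all transcripts of other genes. HIST1H4K had all 163 windows in common with HIST1H4J, whose coding sequence is identical, and HIST1H4J had 72.8% of its windows in common with it. HIST1H2AJ shared 76.9% and HIST1H2AI 51.7% of windows with each other. The other shared windows came from exons of overlapping genes. All windows of HIST1H2AK lay in HIST1H2BN and all windows of HIST1H3D in AL031777.3, which also held 97.1% of those of HIST1H2AD. HIST1H2AM and HIST1H3J overlapped as well, and 23.9% of the windows of HIST1H2BE were shared with AL353759.1. In the longest transcript of 45 genes no window was shared, HIST1H2BN included, since its stretch shared with HIST1H2AK lies in a different one of its transcripts, although the coding sequences were alike, with a median identity of 87.3% between H2A genes, 90.3% between H2B genes, 85.4% between H3 genes and 84.0% between H4 genes of equal coding length. Values of HIST1H4J, HIST1H4K, HIST1H2AI and HIST1H2AJ are uncertain as to which copy gave the reads, and HIST1H2AK, HIST1H2AD, HIST1H2AM and HIST1H3D, listed at 0, each lay over at least 88.0% of their length in exons of another gene.

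HIST1H1C, chr6:26055787-26056428 on the minus strand, encodes a linker histone and was the most abundant gene of the cluster. It was at 994 and 696 FPKM in unstimulated control cells, at 304 and 283 in unstimulated KD cells, at 738 and 773 in TNF-α-treated control cells and at 610 and 617 in TNF-α-treated KD cells. The unstimulated KD libraries were the lowest by far, the TNF-α-treated KD libraries came next, both without overlap with another group, and the 2 unstimulated control libraries lay farther apart than those of any other group. The next H1 gene, HIST1H1E, had 12 to 45 reads a library (1.06 to 3.75 FPKM), and HIST1H1A and HIST1H1T had 24 and 4 reads in all. HIST1H1C alone made up 99.5% of the H1 reads.

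HIST1H2BK, chr6:27146418-27146798 on the minus strand, was the second gene in level. It was at 569 and 470 FPKM in unstimulated control cells, 307 and 351 in unstimulated KD cells, 466 and 459 in TNF-α-treated control cells and 450 and 442 in TNF-α-treated KD cells. The unstimulated KD libraries were again the lowest. The other 3 groups lay between 442 and 569 FPKM, close to each other but without overlap. HIST1H2BJ was at 19.2 to 43.4 FPKM over the 8 libraries, HIST1H2BD at 17.3 to 24.8 and HIST1H2BC at 6.94 to 13.0, and the other H2B genes stayed below 2 FPKM in every library. HIST1H2BK held 74.1% of the H2B reads.

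HIST1H2AC, an H2A gene at chr6:26124145-26139116 on the plus strand, held 86.0% of the H2A reads. Its values were 45.4 and 41.5 FPKM in unstimulated control cells, 34.2 and 33.5 in unstimulated KD cells, 27.7 and 27.1 in TNF-α-treated control cells and 24.7 and 28.0 in TNF-α-treated KD cells. Here the TNF-α-treated libraries of both lines were the lowest and overlapped with each other. The next H2A genes were HIST1H2AG at 2.03 to 3.44 FPKM and HIST1H2AJ at 1.30 to 3.69 FPKM.

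HIST1H4I led the H4 genes with 71.0% of their reads. It was at 54.0 and 37.0 FPKM in unstimulated control cells, 25.9 and 24.9 in unstimulated KD cells, 29.4 and 29.6 in TNF-α-treated control cells and 26.4 and 26.5 in TNF-α-treated KD cells, so that the unstimulated control libraries were the highest and the other 3 groups lay between 24.9 and 29.6 FPKM. HIST1H4H ranged from 3.69 to 7.62 FPKM and HIST1H4J from 1.53 to 11.6 FPKM. The H3 genes were the lowest type: HIST1H3A, HIST1H3B and HIST1H3H, the most abundant of the 10, were at 2.52 to 6.82, 1.23 to 2.46 and 0.842 to 2.05 FPKM, and all H3 genes together had 556 reads.

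**Figure D2:**
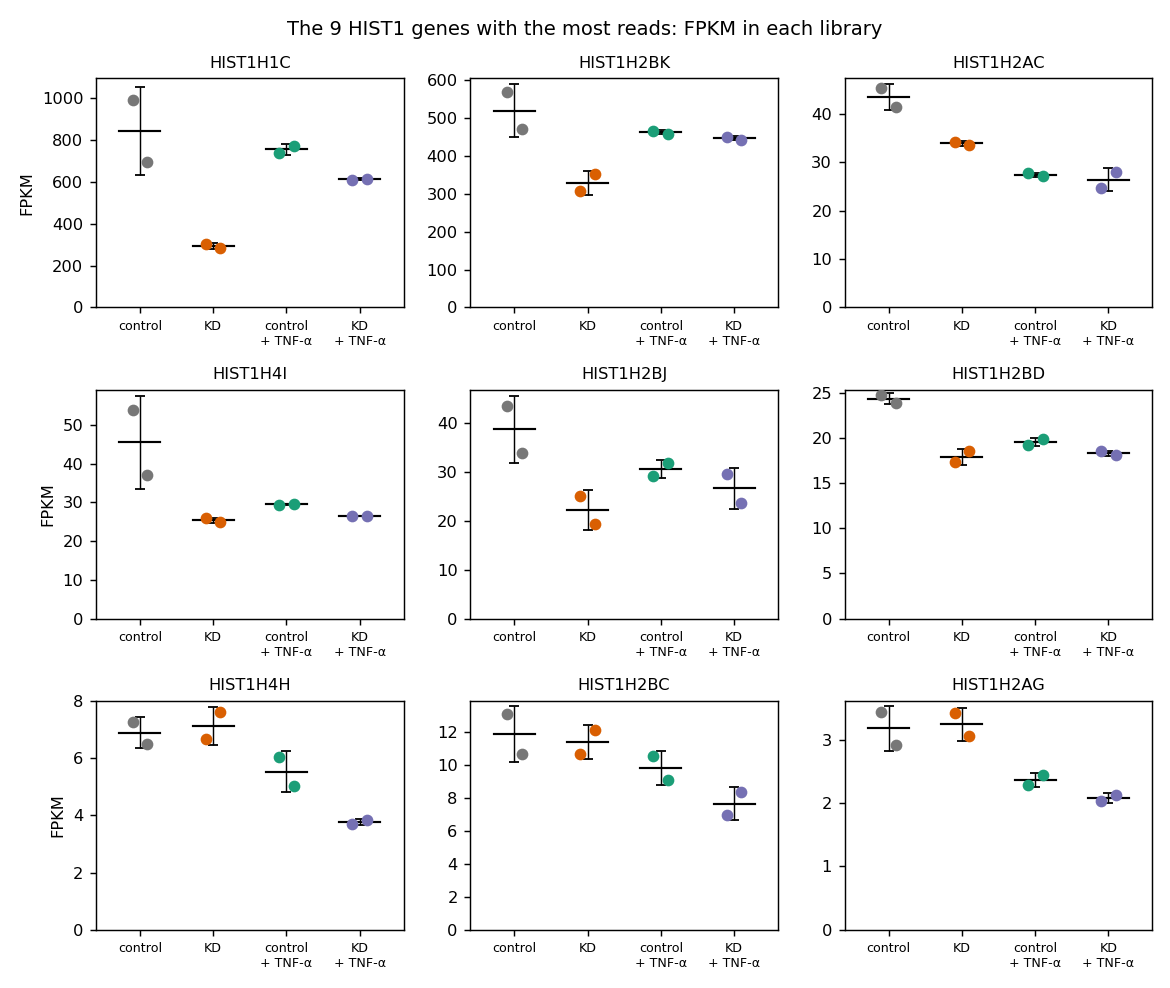
FPKM (linear axes from 0) of the 9 HIST1 genes with the most reads in each of the 8 libraries, by group; points are libraries, bars the mean and whiskers the SD (n = 2). The unstimulated KD libraries are the lowest for HIST1H1C and HIST1H2BK, whereas HIST1H4H, HIST1H2BC and HIST1H2AG are lowest in the TNF-α-treated KD libraries.

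H2A and H2B genes of this cluster often lie back to back and share the sequence between their starts, so levels within such pairs could be compared. They ranged from far apart to close. HIST1H2BK and HIST1H2AH start 331 bases apart, and their mean levels were 439 and 1.03 FPKM. HIST1H2BJ and HIST1H2AG start 292 bases apart and were at 29.4 and 2.72 FPKM. HIST1H2AC and HIST1H2BC, with 219 bases between their starts, were at 32.8 and 10.2 FPKM, the higher level here being that of the H2A gene. HIST1H2AJ and HIST1H2BM were at 2.35 and 0.583 FPKM, and HIST1H2AI and HIST1H2BL at 1.52 and 0.741. HIST1H2AE and HIST1H2BG were at 0.0278 and 0.0232 FPKM, on 2 and 5 reads. HIST1H2AM was listed at 0 beside HIST1H2BO at 0.104 FPKM. HIST1H2AD was listed at 0 beside HIST1H2BF at 0.601 FPKM, but 98.0% of its length lies in exons of AL031777.3. Both HIST1H2AA and HIST1H2BA were listed at 0. As the annotation holds the coding sequence alone for HIST1H2BK and HIST1H2AH but reaches past it for HIST1H2BJ, HIST1H2AG, HIST1H2AC and HIST1H2BC, the levels rest on different parts of the messages.

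**Figure D3:**
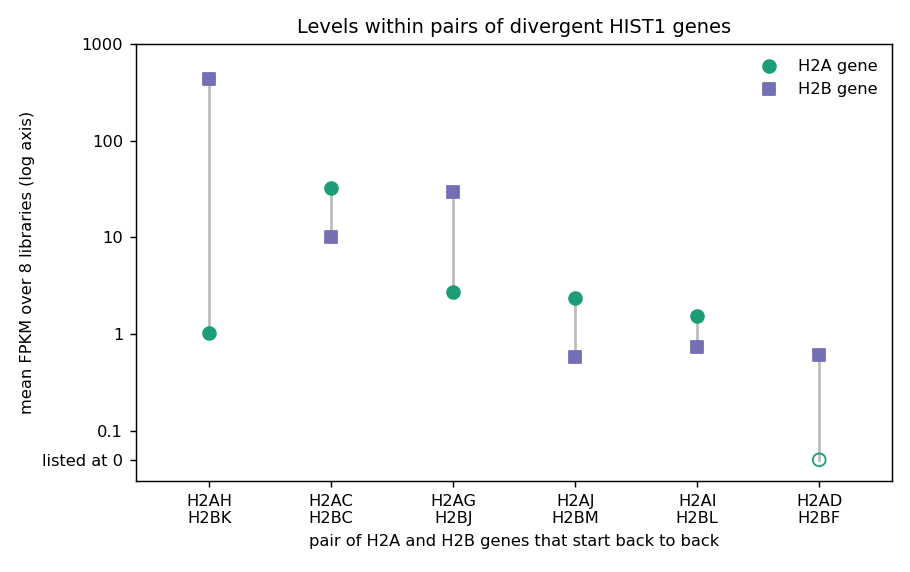
Mean FPKM over 8 libraries (log axis) of the H2A gene (circle) and the H2B gene (square) of 6 divergent pairs with at least 50 reads together; an open symbol marks a gene listed at 0. HIST1H2BK and HIST1H2AH, at 439 and 1.03 FPKM, are the farthest apart among the pairs with reads from both genes.

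Promoters were read from RefSeq (GRCh38.p14), which matched 48 of the 55 genes, from 250 bases before to 50 after the start. They are shown for the leading gene of 4 types because these genes carry most of the reads and moved in the comparisons below. Capitals mark the octamer ATTTGCAT, the CCAAT box, the TATA-like letters TATAAA and GGTCCG, letters known from H4 gene promoters, each on either strand, and overlapping matches run together.

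HIST1H1C, chr6:26056421-26056720, minus strand: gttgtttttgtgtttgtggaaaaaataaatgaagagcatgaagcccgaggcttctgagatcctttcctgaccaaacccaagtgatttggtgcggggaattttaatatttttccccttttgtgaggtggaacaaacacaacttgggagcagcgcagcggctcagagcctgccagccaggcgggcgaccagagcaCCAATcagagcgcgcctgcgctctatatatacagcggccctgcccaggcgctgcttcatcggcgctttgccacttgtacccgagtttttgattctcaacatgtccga
HIST1H2BK, chr6:27146809-27147108, minus strand: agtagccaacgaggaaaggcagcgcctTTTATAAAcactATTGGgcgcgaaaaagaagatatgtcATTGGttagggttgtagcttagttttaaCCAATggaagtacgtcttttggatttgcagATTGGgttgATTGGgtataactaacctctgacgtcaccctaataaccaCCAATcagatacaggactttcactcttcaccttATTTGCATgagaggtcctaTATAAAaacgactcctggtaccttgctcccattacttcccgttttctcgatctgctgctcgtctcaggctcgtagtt
HIST1H2AC, chr6:26123922-26124221, plus strand: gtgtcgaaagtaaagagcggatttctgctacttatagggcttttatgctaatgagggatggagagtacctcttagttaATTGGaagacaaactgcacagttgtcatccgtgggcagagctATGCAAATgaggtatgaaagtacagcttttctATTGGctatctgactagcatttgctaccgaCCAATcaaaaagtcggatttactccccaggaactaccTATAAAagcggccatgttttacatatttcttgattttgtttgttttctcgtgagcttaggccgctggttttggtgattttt
HIST1H4I, chr6:27139032-27139331, plus strand: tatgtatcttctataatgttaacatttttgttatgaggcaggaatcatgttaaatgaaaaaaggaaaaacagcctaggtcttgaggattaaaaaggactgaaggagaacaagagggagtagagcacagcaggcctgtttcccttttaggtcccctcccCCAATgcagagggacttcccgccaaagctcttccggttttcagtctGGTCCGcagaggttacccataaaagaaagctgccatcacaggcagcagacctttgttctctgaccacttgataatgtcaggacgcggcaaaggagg

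The octamer was present in 9 of 11 matched H2A promoters, 12 of 15 H2B promoters, 1 of 6 H3 promoters, and 0 of 6 H1 and 0 of 10 H4 promoters, against 1.77% of all 35116 promoters of this length. The H3 promoter with an octamer is that of HIST1H3D, whose RefSeq window is the same as that of HIST1H2AD, so 1 sequence is counted for both genes. Windows of divergent H2A and H2B genes also overlap on opposite strands, so the same letters can be counted for both genes of a pair. An example is HIST1H2AC (chr6:26123922-26124221) and HIST1H2BC (chr6:26123877-26124176), both with an octamer. The H2A and H2B counts of all these letters are therefore not counts of separate sequences. CCAAT was present in 41 of the 48 promoters (34.6% of all promoters) and TATAAA in 32 (11.5%). GGTCCG was present in 9 of 10 H4 promoters and 1 of 6 H3 promoters, and in 11.3% of all promoters. These are matches of letters and not shown sites. The H2A and H2B genes with an octamer included abundant genes such as HIST1H2BK and HIST1H2AC as well as genes listed at 0, so the letters did not separate them.

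The comparisons were made with limma on log2(FPKM + 1) over all 8 libraries, with p-values adjusted over the 16528 genes that passed the filter on low reads. Of the 55 histone genes 23 passed: 2 H1, 6 H2A, 7 H2B, 3 H3 and 5 H4 genes. A further 14 had reads but too few. Among the 23, 16 passed through libraries of all 4 groups and 7 through 2 or 3 groups only, so the counts below describe the measured part of the cluster. The fold changes understate changes of low genes because of the added 1. In bulk RNA, fewer cells that express a gene and less RNA per cell cannot be told apart.

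In unstimulated cells the question was which histone messages differed when WSB2 was knocked down. 8 of the 23 genes were lower in KD cells and 0 higher. The lower genes were HIST1H4J (-1.64 ± 0.32, log2 ± SE, adjusted p = 0.00293), HIST1H1C (-1.50 ± 0.17, 0.000336), HIST1H4I (-0.79 ± 0.15, 0.00273), HIST1H2BJ (-0.78 ± 0.17, 0.00481), HIST1H3A (-0.73 ± 0.23, 0.0269), HIST1H2BK (-0.65 ± 0.13, 0.00367), HIST1H2BD (-0.42 ± 0.07, 0.00163) and HIST1H2AC (-0.35 ± 0.09, 0.00886). In each of the 8 the KD libraries lay below both control libraries. Called or not, 13 of the 23 genes had no overlap between the groups, and the share over all genes is not given here. Over all genes tested 30.2% were lower and 29.8% higher, so the 34.8% of histone genes that were lower is near the background share. The median of the 23 genes was -0.37, beside -0.0010 over all genes tested. It was -0.15 with scaling to total reads, -0.10 after a correction for GC content and length and -0.59 with upper-quartile factors. Over all genes the median was then 0.13, -0.015 and -0.12. Among the 7 genes with an estimate above 0, the lowest unadjusted p was 0.0936, for HIST1H4E. Limma with voom weights on the recovered reads called 8 genes lower and 0 higher, and 7 of its calls were shared. HIST1H3A lost its call by voom (adjusted p = 0.0612) and HIST1H2AB was added (0.0414). HIST1H2AB did not reach the read floor in unstimulated KD cells, so its entry into the test and its lower value there are not independent.

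The genes that were not called included abundant ones. HIST1H4H was at 7.28 and 6.52 FPKM in control cells against 6.67 and 7.62 in KD cells, HIST1H2BC at 13.0 and 10.7 against 10.6 and 12.1, and HIST1H2AG at 3.44 and 2.93 against 3.43 and 3.06. For these 3 genes the groups overlapped. HIST1H2AG and HIST1H2BC are the divergent partners of HIST1H2BJ and HIST1H2AC, which were called lower, but that the partners differed in their change was not tested.

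HIST1H1C, HIST1H4I, HIST1H2BJ and HIST1H4J were called in all 10 other settings. With 1 library left out HIST1H1C lay between -1.76 and -1.24 and HIST1H4I between -1.06 and -0.53. HIST1H2BJ lay between -0.96 and -0.60 and HIST1H4J between -2.02 and -1.27. With scaling to total reads 5 genes were called lower, against 3456 of all 16528 genes. They were the 4 above and HIST1H2BK, with HIST1H2BK at -0.37, HIST1H4I at -0.52 and HIST1H2BJ at -0.50. The 3 calls lost were those of HIST1H2AC (-0.07, adjusted p = 0.461), HIST1H2BD (-0.15, 0.0983) and HIST1H3A (-0.51, 0.0766). HIST1H2AC had 1134 and 1197 reads in control libraries and 1131 and 1078 in KD libraries. After a correction for GC content and length it was at -0.63 (adjusted p = 0.000568), so the size of its change depended on the processing. It also lost its call without the second KD library (adjusted p = 0.0524).

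GC content moved with this comparison across all genes. The median log2 change was 0.11 for genes with 44% to 48% GC and -0.55 for genes with 60% to 64% GC. The 8 lower histone genes had 42.0% to 62.2% GC and the 15 others 39.5% to 64.1%. After a correction for GC content and length HIST1H1C was at -1.06 (adjusted p = 0.000555), HIST1H4I at -0.74 (0.00197) and HIST1H4J at -1.18 (0.00779). HIST1H2BK, at 61.2% GC, was at -0.20 (0.164) and HIST1H3A, at 60.6%, was at -0.28 (0.315), so these calls were lost. The corrected fit called 8 genes in all, 7 lower and 1 higher, since HIST1H2BN was added as lower (-0.66, 0.00526) and HIST1H3B as higher (0.67, 0.0261). Over all 16528 genes this fit called 4665 lower and 3971 higher. HIST1H3A was called in 5 of 10 other settings and lost its call when the first control library or either KD library was left out (adjusted p = 0.140, 0.0866 and 0.1005).

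**Figure D4:**
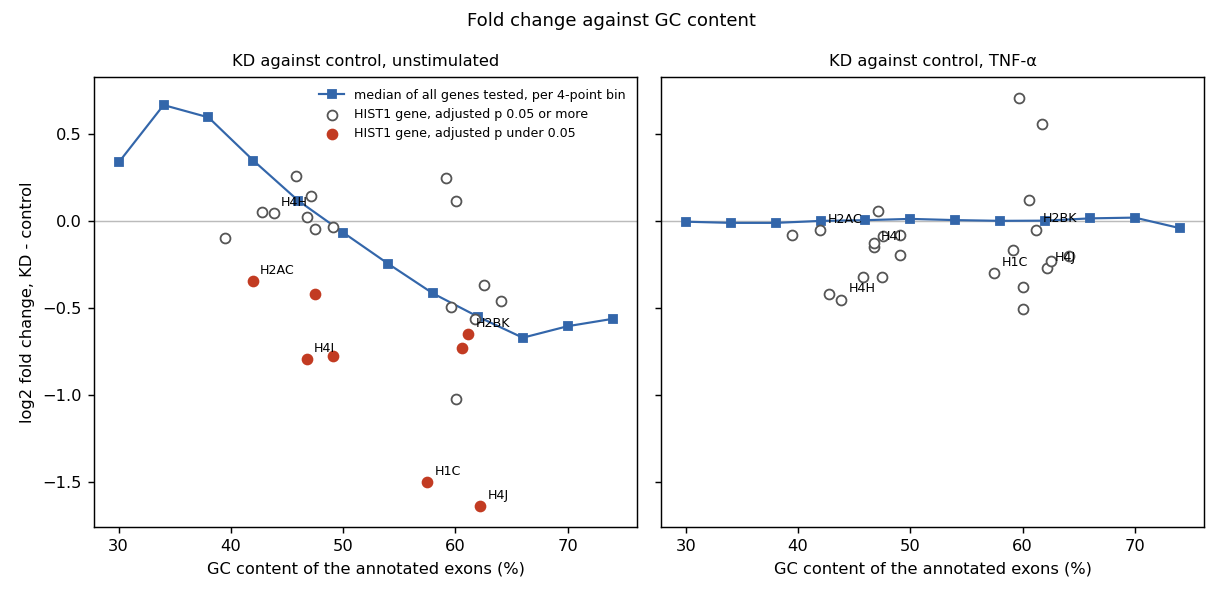
Log2 fold change of KD against control (vertical axis) by GC content of the annotated exons in % (horizontal axis) for the 23 HIST1 genes tested (circles; filled, adjusted p under 0.05) and the median of all genes tested in bins of 4 points of GC (squares, bins of at least 20 genes), in unstimulated cells (left) and with TNF-α (right). In unstimulated cells the median falls with GC content and HIST1H1C, HIST1H4I and HIST1H4J lie below it; with TNF-α the median stays near 0.

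After 5 h of TNF-α, no histone gene passed the threshold between KD and control cells. By limma 0 of 23 were called, against 0.115% of all genes, 5 had an unadjusted p under 0.05, and voom called 0. The lowest adjusted p was that of HIST1H2BF (0.131), which was at 0.473 and 0.542 FPKM in control cells against 0.145 and 0.106 in KD cells, on 9, 10, 3 and 2 reads. HIST1H4H was at 6.04 and 5.04 FPKM against 3.69 and 3.83 in KD cells (-0.45 ± 0.11, adjusted p = 0.275). HIST1H2AI had the largest estimate of the 23, above 0 (0.71 ± 0.19, adjusted p = 0.303). HIST1H1C had an estimate of -0.30 ± 0.17 (adjusted p = 0.766). The median of the 23 genes was -0.17, with 19 estimates below 0, beside a median of -0.00015 over all genes.

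In control cells TNF-α lowered 1 of the 23 genes. HIST1H2AC fell by 0.64 on the log2 scale (SE 0.09, limma, adjusted p = 0.00646), from 45.4 and 41.5 to 27.7 and 27.1 FPKM. The background was 1.14% of all genes lower and 3.10% higher, and 0 histone genes were higher. The median of the 23 genes was -0.29, beside 0.0085 over all genes. None of the 5 genes with an estimate above 0 had an unadjusted p under 0.05, and voom called 1 gene. The call was kept under 9 of 10 other settings, but it was lost without either of the 2 TNF-α-treated control libraries (adjusted p = 0.0566 and 0.0750). HIST1H4I (-0.58 ± 0.15, adjusted p = 0.0869) and HIST1H4J (-1.11 ± 0.32, adjusted p = 0.115) had estimates below 0. HIST1H4I was called lower in 3 of 10 other settings. Among these were total reads (-0.66, adjusted p = 0.0335) and the correction for GC content and length (-0.53, 0.0459). The unstimulated control libraries differed for HIST1H4I and HIST1H4J, at 54.0 and 37.0 FPKM for HIST1H4I. Without the second of these libraries HIST1H1C was at -0.40, and without the first it was at 0.12. The number of calls depended on which of them was left out, over all genes as for the histone genes.

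In KD cells 5 genes were higher with TNF-α and 6 lower, against 31.1% and 31.4% of all genes. HIST1H2AB (1.07 ± 0.39, adjusted p = 0.0448), HIST1H1C (1.06 ± 0.17, 0.00120), HIST1H2AI (0.56 ± 0.19, 0.0342), HIST1H2AJ (0.48 ± 0.15, 0.0275) and HIST1H2BK (0.44 ± 0.13, 0.0208) were higher. HIST1H4H (-0.77 ± 0.11, 0.000720), HIST1H2BF (-0.77 ± 0.08, 0.000137), HIST1H2BC (-0.52 ± 0.13, 0.0103), HIST1H2AG (-0.46 ± 0.11, 0.00764), HIST1H2BE (-0.38 ± 0.14, 0.0462) and HIST1H2AC (-0.35 ± 0.09, 0.00825) were lower. In all 11 the groups did not overlap, and neither did they for 16 of the 23 genes tested, called or not. The share over all genes is not given here, so no weight rests on this. The members of the higher group rest partly on few reads: HIST1H2AB had 6 and 0 reads in the unstimulated KD libraries and 20 and 6 with TNF-α, and HIST1H2AI and HIST1H2AJ share windows with each other. HIST1H2AB did not reach the read floor in unstimulated KD cells, and HIST1H2BE and HIST1H2BF did not reach it in TNF-α-treated KD cells, so these genes passed the filter only through groups other than the lower of the 2 compared. HIST1H2BE lost its call with each of the 4 libraries left out (adjusted p from 0.09998 to 0.162), HIST1H2BK and HIST1H2AJ lost theirs with 3 of the 4, HIST1H2AB, HIST1H2AI, HIST1H2BC and HIST1H2AG with 2, and HIST1H2AC with 1.

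The median of the 23 genes was -0.02, beside -0.015 over all genes, and the split of the calls depended on the scaling. The median of the 23 was -0.31 with total reads, -0.16 after the correction for GC content and length and 0.12 with upper-quartile factors. Scaled to total reads, which moved the median of all genes to -0.19, 1 histone gene was higher and 9 were lower. Over all 16528 genes 3309 were then higher and 7240 lower. With upper-quartile factors, which moved the median of all genes to 0.08, 6 histone genes were higher and 2 lower. Over all genes 6128 were then higher and 4075 lower. HIST1H1C was higher and HIST1H4H and HIST1H2BF lower under every other setting in which they were tested and with each library left out. For HIST1H2BF, with 3 and 2 reads in TNF-α-treated KD cells, entry into the test and a lower value there are not independent. HIST1H1C was at 0.68 with total reads and at 0.64 after the correction for GC content and length, and HIST1H2BF at -0.46 after that correction. HIST1H2AB, HIST1H2AI and HIST1H2AJ were called neither with total reads (adjusted p = 0.0688, 0.171 and 0.213) nor after the correction (0.160, 0.694 and 0.965). HIST1H2BD, not called with the deposited scaling (0.03), was lower with total reads (-0.33, 0.00441) and higher with upper-quartile factors (0.23, 0.0470). HIST1H2AC, HIST1H2BC and HIST1H2AG were at -0.72, -0.87 and -0.74 with total reads, but with upper-quartile factors they were at -0.15 (adjusted p = 0.234), -0.33 (0.0815) and -0.31 (0.0551) and their calls were lost, as was that of HIST1H2BE (-0.32, 0.0797). HIST1H2BK was at 0.06 with total reads (adjusted p = 0.640) and at 0.00 after the correction for GC content and length (0.988), and HIST1H2AC was at -0.01 after that correction (0.937). The correction added HIST1H2BN as higher (0.40, 0.0361) and HIST1H3B as lower (-0.63, 0.0295). The number of calls also changed with the library left out, over all genes as for the histone genes. This comparison and the one in unstimulated cells share the unstimulated KD libraries, so their values are not independent of each other.

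**Figure D5:**
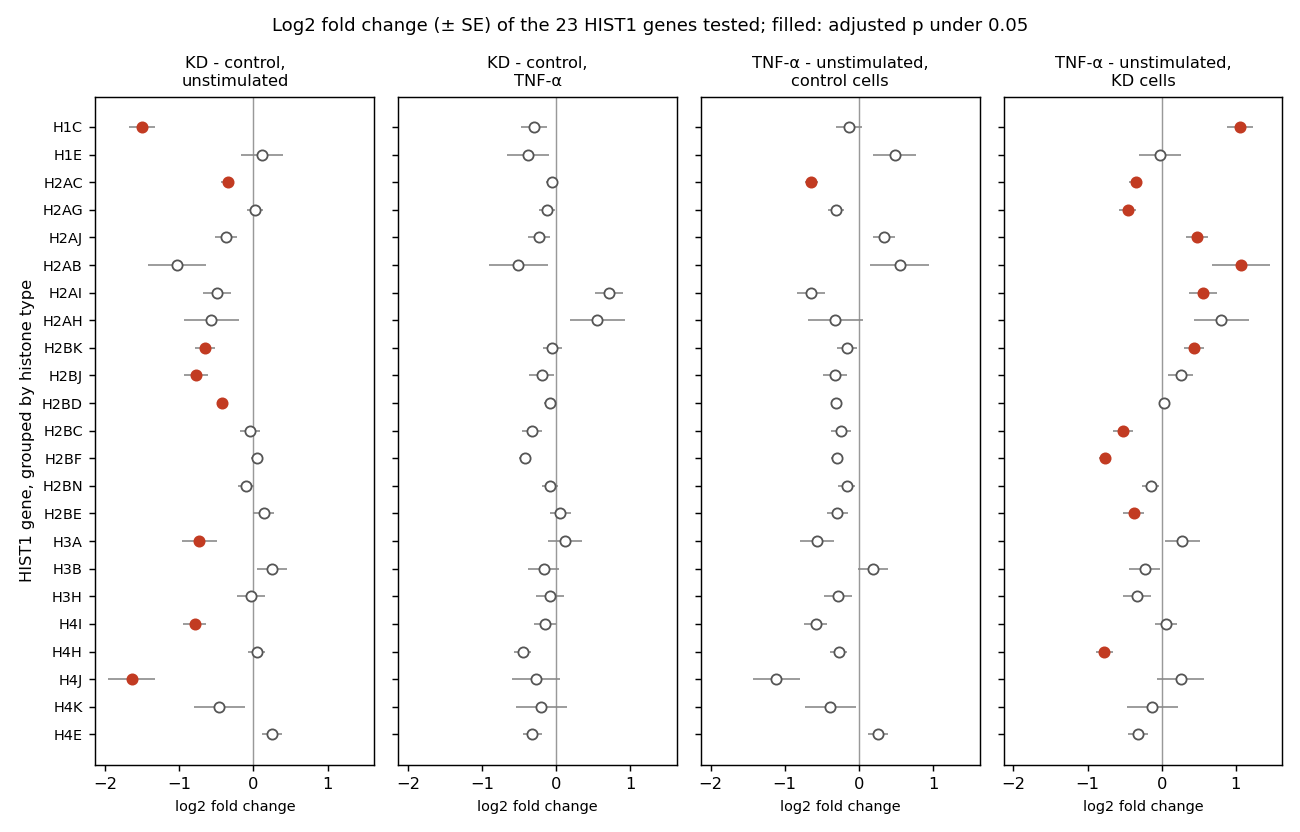
Log2 fold change (horizontal axis, on the log2(FPKM + 1) scale, ± SE) of the 23 HIST1 genes tested, by histone type and level, in 4 comparisons; filled points have an adjusted p under 0.05. 8 genes are lower in unstimulated KD cells, 0 differ between KD and control cells with TNF-α, 1 is lower with TNF-α in control cells, and 5 are higher and 6 lower with TNF-α in KD cells.

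The effect of the knockdown was also compared between TNF-α-treated and unstimulated cells by the interaction term. With an adjusted p under 0.05 it was above 0 for 6 of the 23 genes and below 0 for 3, against 23.8% and 22.3% of all genes. The median of the 23 genes was 0.26, beside 0.0055 over all genes. It was -0.0020 with total reads, 0.079 after the correction for GC content and length and 0.41 with upper-quartile factors. Over all genes the median was then -0.14, 0.029 and 0.12. HIST1H1C had the interaction with the lowest adjusted p (1.199 ± 0.25, 0.00662), with a log2 change in KD cells of -1.50 without TNF-α and of -0.30 with it. HIST1H2AI, HIST1H4J, HIST1H4I, HIST1H2BK and HIST1H2BD were also called above 0, and HIST1H4E, HIST1H4H and HIST1H2BF below. HIST1H4E passed the filter only through unstimulated KD cells and TNF-α-treated control cells, the groups whose higher values make this term negative, so its entry into the test and its sign are not independent. HIST1H2BF did not reach the read floor in TNF-α-treated KD cells, nor HIST1H2AI in TNF-α-treated control cells, groups whose low values add to the sign of their terms, so for these genes too entry and sign are not independent. After the correction for GC content and length the called genes were HIST1H1C (0.77), HIST1H4I (0.59), HIST1H2AC (0.59) and HIST1H2BN (0.58). Over all 16528 genes 3292 were then called above 0 and 2588 below. HIST1H1C was called under all 9 other settings and with each of the 8 libraries left out. With total reads HIST1H4I (0.35, adjusted p = 0.151), HIST1H2BK (0.30, 0.143), HIST1H2BD (0.05, 0.736) and HIST1H4J (1.16, 0.0613) lost their calls, and with upper-quartile factors HIST1H4H (-0.28, 0.212) and HIST1H4E (-0.52, 0.0549) lost theirs. With 1 library left out, HIST1H4I, HIST1H2BK and HIST1H2BD were called in 2 of 8 fits and HIST1H4J, HIST1H4H and HIST1H4E in 3 of 8. HIST1H4I then lay between 0.38 and 0.91. The count was 3 without a filter on low reads and 4 after the correction for GC content and length. It also changed with the library left out, as did the count over all genes.

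Summed over the cluster, the 55 genes held 0.108% and 0.0868% of reads in unstimulated control cells, 0.0590% and 0.0590% in unstimulated KD cells, 0.0784% and 0.0785% in TNF-α-treated control cells and 0.0662% and 0.0669% in TNF-α-treated KD cells. The sum followed HIST1H1C, which made up 56.9% and 52.9% of the cluster's reads in unstimulated control cells, 40.0% and 37.3% in unstimulated KD cells, and 54.7% to 58.9% with TNF-α. Its level relative to HIST1H2BK, which needs no library size, was 1.75 and 1.48 in unstimulated control cells, 0.990 and 0.805 in unstimulated KD cells, 1.58 and 1.69 in TNF-α-treated control cells and 1.35 and 1.39 in TNF-α-treated KD cells. The unstimulated KD libraries were the lowest in this ratio, and the H2A sum showed another order: it was 57.3 and 50.3 FPKM in unstimulated control cells, 40.9 and 40.4 in unstimulated KD cells and 36.4 to 37.7 in the TNF-α-treated libraries.

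Other histone genes were read beside the cluster. Of 12 variant histone genes, 11 were tested and 11 were lower in unstimulated KD cells, against 30.2% of all genes, with a median of -0.50 beside -0.0010 over all genes. With scaling to total reads 5 of the 11 were called lower (H1FX, H2AFZ, H2AFX, H2AFY2 and H2AFJ) and H3F3A was at 0.05, and after the correction for GC content and length 10 were, with H1F0 at 0.02. Of all 16528 genes 3456 were lower with total reads and 4665 after the correction. The median of the 11 was -0.22 with total reads, -0.60 after the correction and -0.74 with upper-quartile factors. H1FX, a linker histone, was at 269 and 209 FPKM in control against 115 and 83.8 in KD cells (-1.26 ± 0.18, adjusted p = 0.000632). H2AFX, the variant phosphorylated at DNA breaks, was at 493 and 398 against 215 and 204 FPKM (-1.08 ± 0.13, 0.000342). After the correction for GC content and length H1FX was at -0.60 and H2AFX at -0.41. With TNF-α 0 of 11 were called between KD and control cells (1 with an unadjusted p under 0.05, 0 by voom). The variant genes summed to 1658 and 1370 FPKM in unstimulated control cells, where the whole chromosome 6 cluster summed to 1796 and 1355 FPKM, and to 941 and 835 FPKM in unstimulated KD cells, where the cluster summed to 757 and 776 FPKM.

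Of 16 protein-coding genes in the other histone clusters (HIST2, HIST3 and HIST4), 6 were tested and 3 were lower in unstimulated KD cells, against 30.2% of all genes, with a median of -0.36. HIST2H2AC was at 31.8 and 17.8 against 13.1 and 12.2 FPKM (-0.86 ± 0.22, adjusted p = 0.0106), HIST2H2BE at 20.04 and 20.1 against 15.4 and 17.1 (-0.29 ± 0.08, 0.0175), and HIST2H4A had 66 reads in all (-0.21 ± 0.06, 0.0183). With total reads 1 of the 6 was called higher and 1 lower, and after the correction for GC content and length the 3 calls were lost, with HIST2H2AC at -0.38 (adjusted p = 0.116) and HIST2H2BE at -0.16 (0.152). The median of the 6 was -0.24 with total reads, -0.12 after the correction and -0.52 with upper-quartile factors. With TNF-α 1 of the 6 was higher and 2 were lower in KD cells, against 31.1% and 31.4% of all genes: HIST2H2AC was higher (0.93 ± 0.22, 0.00733), and HIST2H2BE (-0.44 ± 0.08, 0.00237) and HIST4H4 (-0.42 ± 0.12, 0.0147) were lower. In control cells HIST2H2BE was the 1 gene of the 6 called with TNF-α (-0.39 ± 0.08, 0.0452), and it was not called after the correction for GC content and length (0.0503) or with upper-quartile factors (0.0514). After the correction HIST2H2AC was at 0.45 (0.0667) and no longer called, and with total reads HIST2H2BE was at -0.80.

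Genes for factors that make and use histone messages were called in both directions, as were genes in general. Of 23 genes for transcription, 3′ end processing and decay of histone messages, 8 were higher and 10 lower in unstimulated KD cells (median -0.01), against 29.8% and 30.2% of all genes. NPAT, the coactivator of these genes, was at 0.567 and 0.905 FPKM in control against 4.53 and 5.25 in KD cells (1.77 ± 0.13, adjusted p = 0.000124). CASP8AP2, which acts in histone gene transcription and processing, was at 0.269 and 0.325 against 3.06 and 3.66 FPKM (1.75 ± 0.10, 0.000119). After the correction for GC content and length these 2 changes were 1.03 and 0.98. SLBP, which binds the stem-loop, was at 34.5 and 33.0 against 27.3 and 27.9 FPKM (-0.28, 0.00916) and at -0.02 after the correction, and LSM10, a subunit of the U7 snRNP that guides the cleavage, was at 44.3 and 30.6 against 16.8 and 17.8 FPKM (-1.05, 0.000868) and at -0.51 after the correction. With total reads 11 of the 23 genes were called higher and 5 lower (median 0.25), and after the correction 6 were higher and 5 lower (median -0.11). Over all 16528 genes 6515 were higher and 3456 lower with total reads, and 3971 and 4665 after the correction. With TNF-α 0 of the 23 genes were called between KD and control cells (0 with an unadjusted p under 0.05, 0 by voom). The higher NPAT level and the lower level of the 8 cluster genes stood in the same libraries, and their relation was not tested.

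Of 16 histone chaperone genes 5 were higher and 6 lower in unstimulated KD cells (median -0.20), against 29.8% and 30.2% of all genes, with ATRX higher (1.68 ± 0.14, adjusted p = 0.000155) and DAXX, its partner in H3.3 deposition, lower (-0.69 ± 0.09, 0.000401). DAXX was also the 1 chaperone gene of the 16 that rose with TNF-α in control cells (0.68 ± 0.09, 0.00473). Of 23 S-phase genes, 5 were higher and 14 lower in unstimulated KD cells (median -0.37), against the same shares of all genes. CDT1, which licenses origins, was at 64.9 and 51.1 against 28.0 and 27.9 FPKM (-1.02 ± 0.11, 0.000302), and POLA1, the catalytic subunit of DNA polymerase alpha, was at 2.37 and 3.28 against 6.99 and 7.51 (1.12 ± 0.14, 0.000472). With TNF-α 0 of the 16 chaperone genes (0 with an unadjusted p under 0.05) and 0 of the 23 S-phase genes (2) were called between KD and control cells, and voom called 0 in both. GC content also moved with these genes: CDT1 was at -0.38, POLA1 at 0.74, ATRX at 0.80 and DAXX at -0.28 after the correction for GC content and length. After it 3 chaperone genes were called higher and 4 lower, and 3 S-phase genes higher and 12 lower in unstimulated KD cells. With total reads these counts were 7 and 4 for the chaperone genes and 7 and 10 for the S-phase genes. The chaperone median was 0.075 with total reads, -0.046 after the correction and -0.38 with upper-quartile factors. The S-phase median was -0.097, -0.22 and -0.61 in these settings. Over all 16528 genes 6515 were higher and 3456 lower with total reads, and 3971 and 4665 after the correction.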

How the data were processed

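Total RNA of the 8 libraries (control or WSB2 shRNA, with or without TNF-α, 2 libraries a group) was sequenced on an Illumina NovaSeq 6000. The deposited values were FPKM per gene, which the authors computed per kilobase of GENCODE 29 exon. The submitters' processing notes name CASAVA 1.8, fastp, HISAT2 2.0.5, featureCounts 1.5.0-p3, DESeq2 1.20.0 and GRCh38 (hg38), without their roles. Poly(A) selection, strandedness and the handling of reads that fit several genes are not given in the sources used here. The histone genes and gene lists were chosen with earlier results of these data known.

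Every FPKM value came out as a whole number of reads (tolerance 0.05 read), which gave the depth of each library (15601098 to 18677023 reads). Group means were fitted over all 8 libraries with limma 3.58.1 (R 4.3.3) on log2(FPKM + 1), with a variance trend and Benjamini-Hochberg adjustment over the 16528 genes that kept a minimum of 15 reads over all libraries and, in 2 or more of them, the equivalent of 10 reads at median depth. The count test named in the study's methods was not run, and voom on the recovered reads was the read-based alternative. limma was tested on simulated data. Named were the 3 most abundant genes of each histone type, genes called without overlap between groups (up to 5 rises and 5 falls), genes listed at 0, genes with shared windows, WSB2, and up to 4 called genes of each list (SLBP, the list's stem-loop binding protein, was added after its values were seen). Alternatives were a pseudocount of 0.1, no filter, a mean of at least 1 CPM, total-read and upper-quartile scaling, fits on the compared libraries, voom, GC and length correction, the replicate number as a block, and leaving out each library. Windows of 150 bases and stem-loops came from GENCODE 29 transcripts and promoters from RefSeq.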

Additional observations from a re-analysis of the deposited data

Results flagged for a closer look

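For 9 histone genes the effect of the knockdown differed between TNF-α-treated and unstimulated cells by the interaction term (limma, adjusted p under 0.05 over all genes, log2 scale). It was 1.199 for HIST1H1C, 1.204 for HIST1H2AI, 1.37 for HIST1H4J, 0.64 for HIST1H4I, 0.60 for HIST1H2BK and 0.33 for HIST1H2BD. It was -0.58 for HIST1H4E, -0.50 for HIST1H4H and -0.47 for HIST1H2BF. HIST1H4E passed the filter on low reads only through the unstimulated KD and the TNF-α-treated control libraries, the groups that make its term negative, so its sign is not independent of its entry into the test. The same holds for HIST1H2BF, which did not reach the read floor in the TNF-α-treated KD libraries, and for HIST1H2AI, which did not reach it in the TNF-α-treated control libraries. HIST1H4E had 2 to 19 reads a library and HIST1H2BF 2 to 24. After the correction for GC content and length HIST1H1C (0.77, adjusted p = 0.0106) and HIST1H4I (0.59, adjusted p = 0.0310) were called among these 9, but HIST1H4I was not called with total reads (0.35, adjusted p = 0.151) and was called in 2 of the 8 fits that left out 1 library (0.38 to 0.91). The part of the higher mitochondrial share and lower GC content of the unstimulated KD libraries in these differences was not tested. Groups of 2 libraries were too small to look for single outlying libraries.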

How the results depend on the processing

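The number of histone genes called stayed within 1.5 times its value in unstimulated KD against control cells (8 genes) under all settings but the scaling to total reads (5), and was 0 under all settings for KD against control with TNF-α. For TNF-α in control cells (1 gene) it was 3 with scaling to total reads, 0 with the compared libraries alone, and 2 with the correction for GC content and length, with or without the replicate block. For TNF-α in KD cells (11) it was 6 without a filter and 6 with a mean of at least 1 CPM. For the interaction (9) it was 3 without a filter, 5 with voom and 4 with the correction for GC content and length. Leaving out each library gave 7 to 11, 0 to 0, 0 to 7, 5 to 8 and 3 to 12 genes in these 5 comparisons. Fewer genes entered the test with a mean of at least 1 CPM (14 histone genes), and the other causes were not tested.

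With total reads, against upper-quartile factors, the higher and lower histone genes were 0 and 5 against 0 and 11 for KD in unstimulated cells, 1 and 9 against 6 and 2 for TNF-α in KD cells, and 2 and 4 against 9 and 1 for the interaction; the median of all genes was then 0.13 and -0.12, -0.19 and 0.08, and -0.14 and 0.12, beside -0.0010, -0.015 and 0.0055 with the deposited scaling. With total reads HIST1H4I turned to -0.31 and HIST1H2BD from 0.03 to -0.33 (adjusted p = 0.00441; with upper-quartile factors 0.23, 0.0470) for TNF-α in KD cells and HIST1H2AC to -0.0020 for the interaction. Of all 16528 genes, 6515 were higher and 3456 lower with total reads for KD in unstimulated cells, against 3805 and 6273 with upper-quartile factors. These counts were 3309 and 7240 against 6128 and 4075 for TNF-α in KD cells, and 2440 and 4966 against 5140 and 2781 for the interaction. Leaving out 1 library, HIST1H1C lay between -0.40 and 0.12 for TNF-α in control cells, HIST1H2AC between -0.14 and 0.031 for KD with TNF-α, and HIST1H2BD between -0.016 and 0.079 for TNF-α in KD cells. Correlations of deviations between libraries of the same replicate number ran from -0.19 to 0.35, the highest between unstimulated control and KD libraries. With 2 libraries a group they cannot decide whether the libraries were paired. With the number as a replicate block the counts were 10, 0, 1, 11 and 10 in the 5 comparisons, the interaction last. Of the 32 genes not tested, 14 had too few reads for the filter and 18 were listed at 0, and whether deeper libraries would bring these in was not tested.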
